A study of Rattus norvegicus with 12 samples.

Results

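Immediate early genes and the dual specificity phosphatases of the DUSP family were followed in rat liver cells deprived of arginine, through the 16 probe sets whose array annotation gives a single gene symbol among 10 chosen genes (Dusp1, Dusp5, Dusp6, Egr1, Fos, Jun, Junb, Ier2, Ier3 and Fosl1), of 10412 genes named in that way among 15923 probe sets on the array. All 16 passed the filter on low signals, which left 9745 probe sets to test. The tumor cells were GP7TB, a clonally derived line obtained by chemical transformation of WB-F344 and able to form tumors in rats of the parent strain, and the normal cells were WB-F344 itself, a diploid rat liver epithelial line. Each line was held for 18 hours without L-arginine (arginine-deficient) or with 0.168 g/l of it (arginine-sufficient), in the same medium with serum that was not dialyzed, so that amino acids of the serum were present in all cultures. Each of the 4 groups had 3 independent cultures with 1 array each, 12 arrays in all, and each deficient culture was taken as the partner of a sufficient one (experiments 1 to 3 of each line). This pairing rests on the study's pair-wise design, the consecutive numbers in the sample titles and the handling notes in the run records. The sample labels do not state it outright. Each cell type is represented by 1 line.

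Immediate early genes are transcribed within minutes of a stimulus without new protein synthesis, largely through ERK, JNK and p38 kinases acting on serum response factor, its ternary complex partners and CREB. Fos, Fosl1, Jun and Junb encode subunits of the dimeric factor AP-1, and Egr1 encodes a zinc finger factor. Dusp1, Dusp5 and Dusp6 encode phosphatases that remove the activating phosphates from these kinases, and since the same kinases raise their transcripts they act as negative feedback. In liver, several of these genes are known for their rapid induction after partial hepatectomy and by growth factors.

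The promoters of Dusp1, Dusp5 and Fosl1 are shown because they belong to the members whose signals separated the media in tumor cells. RefSeq promoter windows (build GRCr8, from 250 bases before to 50 after a gene's start) were held for 7 of the 10 genes, not for Fos, Jun or Ier3. The 250 bases before the start are printed for Dusp1 (chr10:17184603-17184852), Dusp5 (chr1:262543524-262543773) and Fosl1 (chr1:212183635-212183884), all on the plus strand. Capitals mark CArG boxes, which serum response factor binds, and the cAMP response element (CRE) TGACGTCA or its core TGACG on either strand, which lies within the full element.
Dusp1: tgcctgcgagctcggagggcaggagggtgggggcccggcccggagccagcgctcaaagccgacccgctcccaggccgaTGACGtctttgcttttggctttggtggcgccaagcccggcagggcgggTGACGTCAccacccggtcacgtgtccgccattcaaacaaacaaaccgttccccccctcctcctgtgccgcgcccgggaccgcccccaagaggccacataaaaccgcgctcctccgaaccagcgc
Dusp5: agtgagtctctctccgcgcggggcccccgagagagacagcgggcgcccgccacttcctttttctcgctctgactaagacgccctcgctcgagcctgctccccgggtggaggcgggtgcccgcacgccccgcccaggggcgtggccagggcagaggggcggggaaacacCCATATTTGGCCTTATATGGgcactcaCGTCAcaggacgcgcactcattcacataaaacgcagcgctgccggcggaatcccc
Fosl1: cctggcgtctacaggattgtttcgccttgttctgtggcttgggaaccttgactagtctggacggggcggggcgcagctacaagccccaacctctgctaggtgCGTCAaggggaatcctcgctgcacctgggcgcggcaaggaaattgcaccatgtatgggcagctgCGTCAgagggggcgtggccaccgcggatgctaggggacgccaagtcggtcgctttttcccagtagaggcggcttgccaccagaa
Dusp5 held 2 abutting CArG boxes, the first beginning 82 bases before the start, and CArG boxes were also found in the window of Egr1. Of all 33465 promoter windows of that length, 1.64% held a CArG box. Dusp1 held a full CRE 124 bases before the start, as did Ier2 at 66 bases, against 1.83% of all windows. The CRE core was found in 6 of the 7 windows, all except that of Dusp6, and in 21.2% of all windows. The AP-1 site TGACTCA, the composite element that ATF4 binds and the longer ETS site CCGGAAG were found in none of the 7, against 4.63%, 3.97% and 8.75% of all windows. The shorter GGAA within that ETS site was not counted, and it does occur in the printed sequences on one strand or the other. All the counts above are of matches of letters in a short window, on both strands, and say nothing of binding.

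The trimmed mean signal was 500.1 to 500.2 in all arrays, a likeness that comes from the authors' scaling per array. The median signal was 173 to 214 in tumor arrays and 200 to 226 in normal arrays. Signals are in the arbitrary units of the array software, and a signal counted as low below the 46th percentile of its array, 146 to 191. Of 5 epithelial markers Krt8 was above that level in every array and Krt18, Krt19, Cdh1 and Epcam in none, and none of 6 hepatocyte markers was above it in all 3 arrays of any group. The summed epithelial signal, nearly all of it from Krt8, was 5763 to 9922 in deficient and 6350 to 11286 in sufficient tumor cells. In normal cells that sum was 2282 to 5655 in deficient and 4070 to 7192 in sufficient cultures. Of 5 mesenchymal markers Vim, Acta2 and Col1a1 were above the low-signal level in all arrays, Des in 1 of 3 deficient and 1 of 3 sufficient tumor arrays and in 2 of 3 deficient and 3 of 3 sufficient normal arrays, and Thy1 in none. Their summed signal was 12218 to 16508 in deficient and 11658 to 13724 in sufficient tumor cells. In normal cells it was higher, 30798 to 41079 in deficient and 37681 to 48886 in sufficient cultures. Of 4 immune markers Cd14 was above the low-signal level in every array and Ptprc, Cd68 and Cd74 in none. The tumor arrays were all scanned on a single day and the normal arrays on 3 other days, and the lines shared no chip lot. Cell line therefore cannot be told apart from scan day or chip lot. The run records of the tumor arrays note trypsin for experiments 1 and 3 and no trypsin for experiment 2. Fewer cells of a type and less RNA per cell cannot be told apart in such samples.

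In tumor cells Dusp1 was 2.34-fold higher without arginine at 1 of its 2 probe sets, just under the threshold (adjusted p = 0.0498 by limma). That call held in 11 of 26 alternatives, among them 3 of 12 fits that left out an array. The other Dusp1 probe set had an adjusted p of 0.130 by limma. The other feedback phosphatases Dusp5 and Dusp6 (at 2 of its 3 probe sets), Fosl1 and Ier2 were higher by 1.52- to 2.99-fold and passed the test with cultures blocked by experiment but not without the block. These calls depend on the pairing, and with group means removed the tumor partners of experiments 1 to 3 correlated at 0.560, 0.0368 and 0.419. In normal cells no member passed the test. Counts of members, here and below, are set beside the share of all tested probe sets. The members were chosen with earlier results of these data known, so a count above that share is not independent evidence. At an adjusted p under 0.05 by limma, 1 of the 16 probe sets was higher in deficient tumor cells, against 0.965% of all tested probe sets, and 0 were lower, against 0.944%. An unadjusted p under 0.05 was found for 8, all higher, and for 15.3% of all tested probe sets in either direction. Among the 8 is Fos at 1375043_at, whose tumor signals were all low, so its place there is no evidence of a change. With experiments as blocks, 7 probe sets were higher, against 4.79% of all tested, and 0 lower, against 6.18%. Those higher were 2 of Dusp1, 2 of the 3 of Dusp6, and those of Dusp5, Fosl1 and Ier2. The deficient and sufficient signals did not overlap for 7 probe sets, all higher, where 9.69% of all tested probe sets were higher and 13.6% lower without overlap. In normal cells 0 of 16 passed, against 0.164% of all tested probe sets, and 0 with the block, against 2.41%. There 2 had an unadjusted p under 0.05, both of Jun, against 9.44% of all tested probe sets, and 0 were free of overlap, where 6.18% of all tested were higher and 7.76% lower without overlap. The median log2 change over the 16 probe sets was 0.63 in tumor and 0.14 in normal cells, beside −0.05 and −0.04 over all tested probe sets. The tumor median also includes Fos at 1375043_at.

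**Figure D1:**
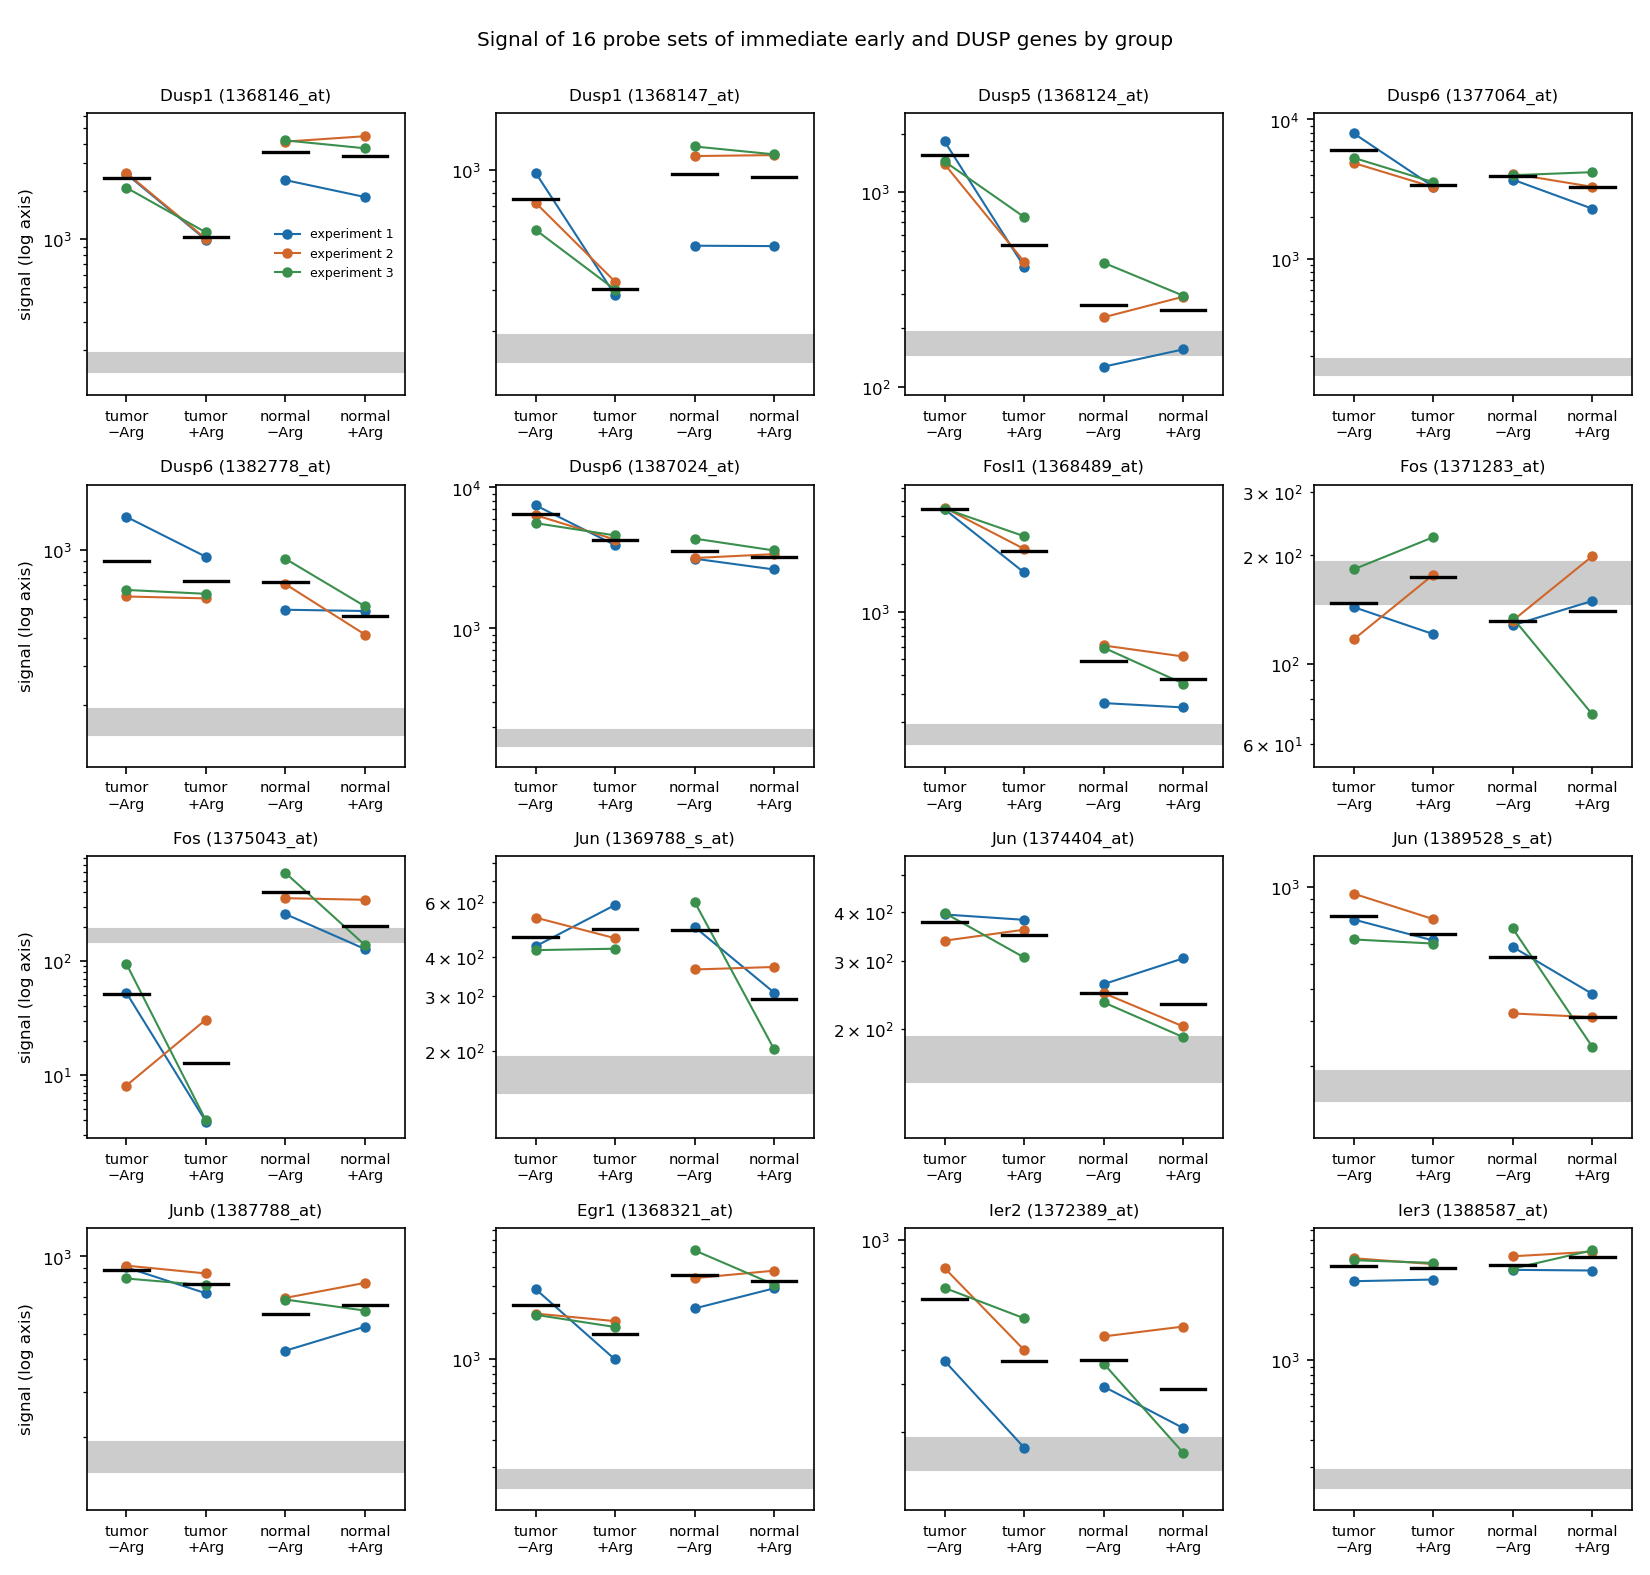
Signal of each of the 16 probe sets on a log axis, in arbitrary units, by group (tumor cells, then normal cells, without and with arginine). Points are single arrays, lines join the 2 arrays of an experiment, black bars are group means (n = 3) and the grey band is the low-signal level of the arrays, 146 to 191. The deficient tumor arrays lie above all sufficient tumor arrays for both Dusp1 probe sets, Dusp5, 2 of the Dusp6 probe sets, Fosl1 and Egr1.

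Dusp1 encodes a nuclear phosphatase with a preference for p38 and JNK. Its probe set 1368146_at read 2575, 2612 and 2110.4 in experiments 1 to 3 of deficient tumor cells, against 993, 1006 and 1104 in sufficient tumor cells. The lowest deficient array was well above the highest sufficient array, and the sufficient arrays lay close together. The means were 2432 ± 279 and 1034 ± 61.0 (SD, n = 3 each), a log2 change of 1.23 ± 0.29 (SE, adjusted p = 0.0498 by limma, or 0.000503 with the experiment blocked). Leaving out each array in turn, the call held in 3 of 12 fits, those without a normal array of experiment 1 in either medium or the sufficient normal array of experiment 2, and adjusted p was 0.0178 to 0.195. Within the pair of chip lots of the tumor arrays, the second with 1 array per medium and these of different experiments, the log2 change was 1.17 and 1.36. In normal cells the same probe set read 2355, 4113 and 4186 without arginine and 1843, 4448 and 3735 with it. Those arrays differed by experiment, experiment 1 being low in both media, and the media overlapped, with a log2 change of 0.14 and a 95% interval of −0.49 to 0.76. Among the 3 normal arrays scanned on 1 day the log2 difference was 0.76. These were both arrays of experiment 1 and the deficient array of experiment 2, so that value mixes experiments. The log2 ratios by experiment were 0.35, −0.11 and 0.16 in experiments 1 to 3. The partners of experiment 2 differed in scan day and chip lot, and those of experiment 3 shared both. Deficient tumor cells had signals that overlapped those of deficient normal cells (log2 difference −0.50 ± 0.29, adjusted p = 0.187 by limma), whereas sufficient tumor cells lay below all sufficient normal cells (−1.60 ± 0.29, adjusted p = 0.000944).

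The other Dusp1 probe set, 1368147_at, gave a change of similar size with more spread. It read 978, 723 and 550.4 in deficient tumor cells and 286, 327 and 302 in sufficient tumor cells, without overlap. The log2 change was 1.26 ± 0.40, with an adjusted p of 0.130 by limma and of 0.00131 when blocked by experiment, and it was 1.10 and 1.58 within the chip lots. Normal cells read 469, 1155 and 1271 without arginine and 467, 1166 and 1175 with it, so each pair was nearly equal.

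Dusp5, a nuclear phosphatase specific for ERK, had the largest change among the DUSP probe sets in tumor cells. It read 1821, 1392 and 1438 in deficient tumor cells, against 414, 439 and 745 in sufficient tumor cells. All deficient arrays were above all sufficient ones, and experiment 3 had the smallest ratio, at a log2 of 0.95 against 2.14 and 1.66 in experiments 1 and 2. The means were 1550.2 ± 236 and 533 ± 184 (SD, n = 3 each), a log2 change of 1.58 ± 0.39 that ranked 41 of 9745. Its adjusted p was 0.0546 by limma, just short of the threshold, and 0.00188 with the block. Within the chip lots the log2 change was 1.35 and 2.05. In normal cells Dusp5 read 127, 228 and 434 without arginine and 156, 290.3 and 294 with it, the experiment 1 arrays being at or below the low-signal level. The log2 change over all 3 experiments was −0.03 (95% interval −0.86 to 0.81).

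Dusp6 encodes a cytoplasmic phosphatase specific for ERK and was read by 3 probe sets, which disagreed in part. Probe set 1377064_at read 7951, 4869.8 and 5302 in deficient tumor cells and 3295, 3264 and 3544 in sufficient tumor cells, a log2 change of 0.81 ± 0.22 (adjusted p = 0.0802 by limma; 0.0106 with the block). Probe set 1387024_at read 7483, 6367 and 5587 in deficient and 3903, 4272 and 4572 in sufficient tumor cells, a log2 change of 0.60 ± 0.18 (adjusted p = 0.115; 0.0164 with the block). Neither overlapped between the media, and both had their largest ratio in experiment 1. Within the chip lots their log2 changes were 0.57 and 1.28, and 0.50 and 0.81. Probe set 1382778_at overlapped, with 1420, 618 and 662 in deficient and 936, 606 and 636 in sufficient tumor cells, and a log2 change of 0.23 ± 0.31 (adjusted p = 0.790; 0.458 with the block), or −0.27 and 1.23 within the chip lots. In normal cells the 3 probe sets had log2 changes of 0.31, 0.15 and 0.50 in that order, with adjusted p of 0.712, 0.857 and 0.657 by limma, and all overlapped.

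Fosl1, which encodes the AP-1 subunit FRA1, read 4426, 4527 and 4469.5 in deficient tumor cells, against 1765, 2487 and 2993 in sufficient tumor cells. The 3 deficient arrays were nearly equal, and the size of the ratio followed the sufficient partner. The log2 change was 0.92 ± 0.33 (adjusted p = 0.178 by limma; 0.00625 with the block), and 0.97 and 0.83 within the chip lots. Normal cells read 264, 610.3 and 592 without arginine and 248, 520.1 and 351 with it, with a log2 change of 0.36 and a 95% interval of −0.34 to 1.06. Tumor cells were far above normal cells in either medium, by 3.29 ± 0.33 without arginine (adjusted p = 5e-06) and 2.73 ± 0.33 with it (adjusted p = 3.08e-05).

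Fos, the founding AP-1 subunit of the FOS family, was read by a pair of probe sets, 1 near the low-signal level in both lines and 1 below it in every tumor array. Probe set 1375043_at read 52.6, 8.1 and 94.5 in deficient tumor cells and 3.9, 30.7 and 4.0 in sufficient tumor cells, all below that level, so that these signals have no reliable order (adjusted p = 0.294 by limma). In normal cells it read 258, 356 and 593 without arginine and 128, 345 and 138 with it, above the level in all 3 deficient and 1 of 3 sufficient arrays and overlapping (log2 change 1.06 ± 0.94, adjusted p = 0.782). It passed the filter through these normal arrays alone. A difference of tumor from normal cells is therefore given with low signals raised to the 46th percentile of their array. On the log2 scale it was −1.27 without arginine and −0.46 with it. Every tumor value is then that level itself, so no test of this difference is read as a result. Probe set 1371283_at read 117 to 183 in deficient and 121 to 225 in sufficient tumor cells, and 128 to 134 in deficient and 72.4 to 199 in sufficient normal cells. It did not follow the other and passed no test.

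Jun, the partner subunit of AP-1, was read by 3 probe sets, of which 2 carry a suffix marking probes that can also match other transcripts. In normal cells probe set 1369788_s_at read 499.6, 365 and 602 without arginine and 308, 372 and 202 with it, and 1389528_s_at read 584, 321 and 689.8 without and 383, 311 and 238 with it. Both were higher in experiments 1 and 3 and about equal in experiment 2, and the groups overlapped. Their log2 changes of 0.75 ± 0.25 and 0.73 ± 0.28 had adjusted p of 0.343 and 0.419 by limma, and 0.133 and 0.110 with the block. In tumor cells 1369788_s_at read 433, 535 and 421 without arginine and 588, 459.7 and 425 with it, a log2 change of −0.08. There 1389528_s_at read 748, 943 and 625 without arginine and 619, 750.3 and 602 with it, a log2 change of 0.22. The third probe set, 1374404_at, read 395, 338 and 398 in deficient and 382, 361 and 306 in sufficient tumor cells, and 261, 248 and 234 in deficient and 304, 203 and 191 in sufficient normal cells. Its log2 changes were 0.11 in tumor and 0.12 in normal cells, with adjusted p of 0.864 and 0.905.

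Junb encodes an AP-1 subunit that can restrain Jun. It read 908, 922 and 822 in deficient and 720.1, 859.8 and 774 in sufficient tumor cells, and 432, 692 and 682 in deficient and 535, 791 and 618 in sufficient normal cells. All 3 tumor ratios were above 0, but the groups overlapped (log2 change 0.17 ± 0.21, adjusted p = 0.757 by limma; −0.12 ± 0.21 and 0.907 in normal cells).

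Egr1 read 2876, 1989.8 and 1954 in deficient tumor cells, against 999, 1777 and 1626 in sufficient tumor cells. The groups did not overlap, but experiment 1 carried most of the difference, with log2 ratios of 1.52, 0.16 and 0.26 in experiments 1 to 3. The log2 change was 0.65 ± 0.30, with an adjusted p of 0.314 by limma and of 0.124 with the block. The change was 0.89 within the arrays noted as trypsin, experiments 1 and 3, and 0.16 in the pair noted as no trypsin. That 0.89 came mainly from experiment 1, and experiment 3 lay near the pair without trypsin. In normal cells Egr1 read 2148, 3384 and 5137 without arginine and 2904, 3785 and 3074 with it, a log2 change of 0.05 (95% interval −0.59 to 0.69).

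Ier2, a nuclear immediate early protein, read 364, 792 and 671 in deficient and 176, 399 and 520.3 in sufficient tumor cells. The groups overlapped although each deficient array exceeded its partner, and the log2 change of 0.80 ± 0.44 had an adjusted p of 0.421 by limma and 0.0408 with the block. Within the chip lots it was 1.27 and −0.13, so that the direction differed between them. In normal cells it read 294, 447 and 356 without arginine and 208, 486 and 169 with it (0.49 ± 0.44, adjusted p = 0.788). Ier3, an early gene that modulates ERK signaling and cell survival, differed little between media. It read 3252, 4594 and 4462 in deficient and 3336, 4207 and 4282 in sufficient tumor cells, with a log2 change of 0.05 (95% interval −0.35 to 0.45). In normal cells it read 3859, 4731 and 3929 without arginine and 3821, 5066 and 5179 with it, a change of −0.16 (95% interval −0.56 to 0.24).

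**Figure D2:**
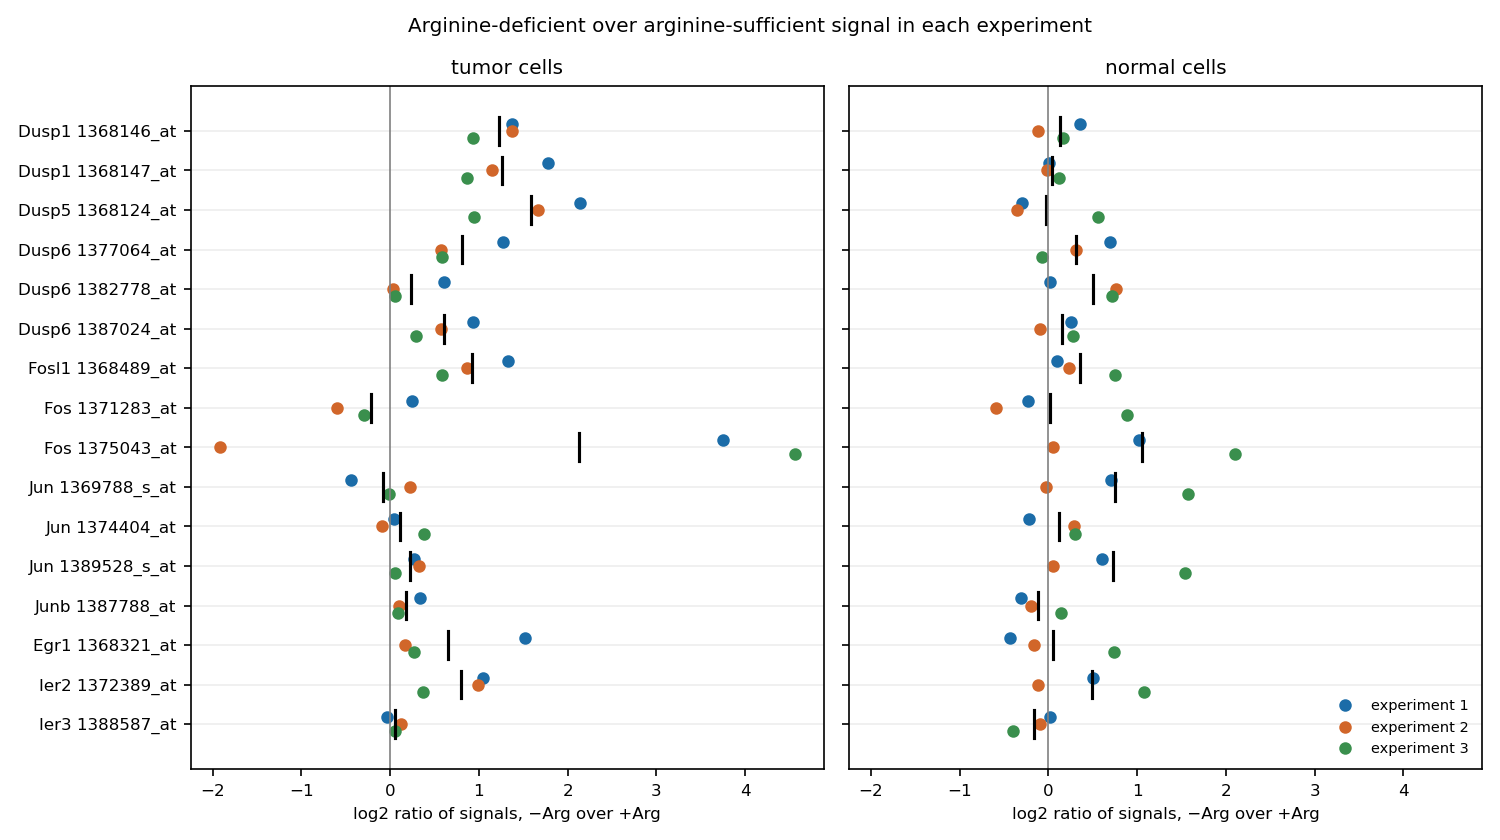
Log2 ratio of the arginine-deficient over the arginine-sufficient signal in each experiment, for tumor cells (left) and normal cells (right). Points are experiments 1 to 3, black bars their mean and the grey line no difference. The probe sets of Dusp1, Dusp5, Dusp6, Fosl1, Junb, Egr1 and Ier2 and Jun at 1389528_s_at lie above 0 in all 3 tumor experiments. The tumor ratios of Fos 1375043_at are between signals below the low-signal level.

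The difference between the responses of tumor and normal cells was tested directly. By limma 0 of the 16 probe sets passed, and 0% of all tested probe sets did, while 4 of the 16 had an unadjusted p under 0.05, against 5.64% of all tested. Dusp5 differed by 1.61 ± 0.55 on the log2 scale (95% interval 0.43 to 2.79, adjusted p = 0.824), and the 2 Dusp1 probe sets by 1.09 ± 0.41 (0.20 to 1.98, adjusted p = 0.824) and 1.23 ± 0.56 (0.03 to 2.43, adjusted p = 0.874). Jun ran the other way at 1369788_s_at, by −0.83 ± 0.36 (−1.59 to −0.06, adjusted p = 0.837). With the block 0 of 16 passed, against 0.0513% of all tested, and the smallest adjusted p among them was 0.0691, for Dusp1 at 1368146_at. Averaged over both cell types, 0 of 16 passed, against 2.96% of all tested probe sets, and 7 were higher with the block, against 6.10%, and 0 lower, against 8.58%.

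Tumor and normal cells were also compared within each medium, where line cannot be told apart from scan day or chip lot. Several of the probe sets counted are of the same gene, and large shares of all tested probe sets differed too. With arginine, 5 probe sets were higher in tumor cells, against 16.4% of all tested probe sets, and 4 were lower, against 18.1%. Those higher were Dusp5, Fosl1 and the 3 of Jun, and those lower were the 2 of Dusp1, Egr1 (−1.18 ± 0.30, adjusted p = 0.00732 by limma) and Fos at 1375043_at, whose tumor signals were all below the low-signal level. The Jun probe sets 1369788_s_at, 1374404_at and 1389528_s_at differed by 0.77 ± 0.25, 0.61 ± 0.21 and 1.10 ± 0.28 there (adjusted p = 0.0292, 0.0343 and 0.00727). Without arginine 6 were higher, against 19.5%, and 1 was lower, against 21.2%. Those higher were Dusp5, Fosl1, Junb (0.59 ± 0.21, adjusted p = 0.0381), Jun at 1374404_at (0.60 ± 0.21, adjusted p = 0.0319) and Dusp6 at 1377064_at and 1387024_at, and the lower was Fos at 1375043_at, again set against tumor signals below the low-signal level. Dusp5 stood 2.73 ± 0.39 above normal cells without arginine (adjusted p = 0.000114) and 1.12 ± 0.39 with it (adjusted p = 0.0386). Dusp6 at 1387024_at stood 0.88 ± 0.18 above without arginine (adjusted p = 0.00179) and 0.42 ± 0.18 with it (adjusted p = 0.0859). Signals of the lines did not overlap for 7 probe sets higher and 4 lower with arginine, against 24.5% and 24.7% of all tested. Without arginine they did not overlap for 6 higher and 1 lower, against 24.5% and 24.1%. Fos at 1375043_at is among the lower calls and the lower probe sets without overlap in both media. It was tested only through its normal arrays, so its place in these counts is no evidence of a difference between the lines. Without the deficient tumor array of experiment 1 or of experiment 3, the 7 calls without arginine became 4. The comparisons with and without arginine use different arrays, and the change in a line difference between media is the difference of responses given above.

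**Figure D3:**
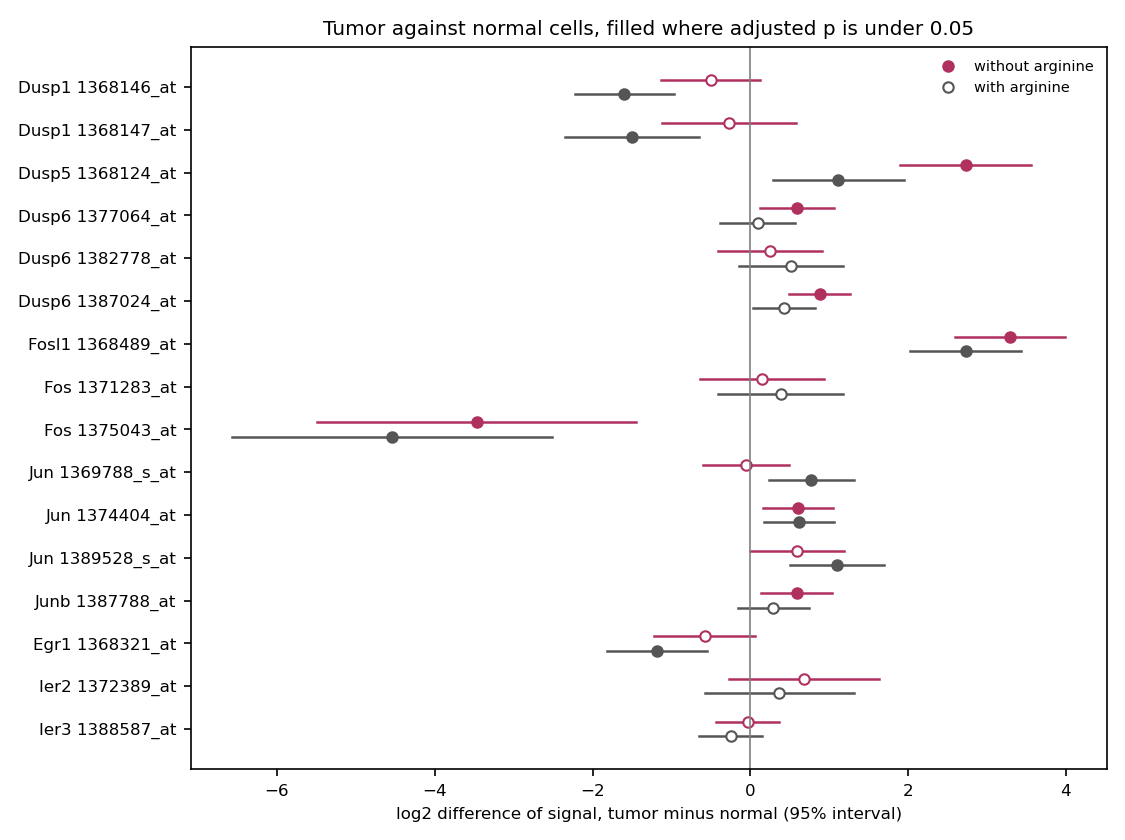
Log2 difference of signal, tumor minus normal cells, for each of the 16 probe sets, without arginine (red) and with arginine (grey), with the 95% interval from limma (n = 3 arrays per group). Filled points passed at an adjusted p under 0.05, and Fosl1 has the largest positive differences, 3.29 without arginine and 2.73 with it. The points of Fos 1375043_at rest on tumor signals below the low-signal level, so their size cannot be read.

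The other genes of these pathways were read from 1 probe set each, the brightest. In deficient tumor cells 0.965% of all tested probe sets were higher and 0.944% lower by limma, or 4.79% and 6.18% with the block. In deficient normal cells 0.164% passed in either direction, or 2.41% with the block. Among 38 other immediate early genes tested, 2 were higher and 1 lower in deficient tumor cells, and 8 and 2 with the block. Higher were Rhob, a small GTPase (0.84 ± 0.18, adjusted p = 0.0327 by limma), and Klf2, a zinc finger factor (1.55 ± 0.36, adjusted p = 0.0461). The lower was Id3, an inhibitor of basic helix-loop-helix factors (−1.33 ± 0.28, adjusted p = 0.0329). The log2 changes of Rhob, Klf2 and Id3 in normal cells were 0.57, 1.08 and −0.03 (adjusted p = 0.324, 0.345 and 0.986). In normal cells 0 of 38 passed, and 3 were higher with the block. The median log2 change of these genes was 0.10 in tumor and 0.01 in normal cells.

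Of 15 other AP-1 and basic leucine zipper partners 4 were higher in deficient tumor cells, all of the ATF and MAF families. They were Atf4 (0.92 ± 0.17, adjusted p = 0.0168 by limma) and Atf5 (1.32 ± 0.26, adjusted p = 0.0245), which serve the amino acid response, Atf3 (3.69 ± 0.87, adjusted p = 0.0488) and Mafk, a small MAF protein (0.84 ± 0.20, adjusted p = 0.0496). The last pair lay at the threshold, Atf3 passing in 9 of 26 alternatives and 3 of 12 fits that left out an array, and Mafk in 7 of 26 and 2 of 12. With low signals raised to the 46th percentile Atf3 had a log2 change of 0.71 (adjusted p = 0.209 by limma). In normal cells 0 of 15 passed, and 3 were higher with the block, Atf4 (0.61, adjusted p = 0.0318) and Atf5 (1.10, adjusted p = 0.00334) among them. The amino acid response list itself, 18 genes that also hold Atf3 and Atf5, had 13 higher in tumor cells and 6 in normal cells, with medians of 1.51 and 1.29, and 0 of its genes passed the test of the difference between the responses.

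Of 14 ligands and receptors that feed ERK signaling, Vegfa was higher in deficient tumor cells (1.35 ± 0.28, adjusted p = 0.0305 by limma). Its log2 change in normal cells was also 1.35 ± 0.28 (adjusted p = 0.115, or 0.00456 with the block), and the mean over both lines passed (adjusted p = 0.00336). The EGF receptor ligands Ereg (0.88 ± 0.22, adjusted p = 0.0600) and Hbegf (1.09 ± 0.27, adjusted p = 0.0604) passed with the block, at 0.0150 and 0.0159, and were named after their values were seen. In normal cells their log2 changes were −0.07 and 0.19 (adjusted p = 0.957 and 0.884), and neither passed the test of the difference between the responses (adjusted p = 0.824 and 0.837). None of the 11 genes of the RAS-RAF-MEK-ERK cascade, the 10 of the JNK and p38 cascades, the 6 other DUSP phosphatases, the 12 other feedback inhibitors or the 6 of the SRF group passed in either cell type by limma. With the block in tumor cells, the feedback inhibitors Spry2 (1.05, adjusted p = 0.0327) and Errfi1 (0.85, adjusted p = 0.0292) were higher, and Dusp14 (−0.80, adjusted p = 0.0220) and Mapk14, which encodes p38 alpha (−0.55, adjusted p = 0.0410), were lower, all of them also named after their values were seen. In normal cells Spry2 had a log2 change of 0.97 (adjusted p = 0.0916 with the block), and its mean over both lines passed by limma (1.01 ± 0.25, adjusted p = 0.0425). Of the same feedback inhibitors, Rgs2 was higher (1.06, adjusted p = 0.00304) and Pea15 lower (−0.99, adjusted p = 0.0280) in deficient normal cells with the block. Rgs2 passed the blocked test of the difference between the responses (−1.24, adjusted p = 0.0370, against 0.824 without the block). Among 16 output genes of AP-1 and ERK, Plau, the urokinase gene, was lower in deficient tumor cells (−1.53 ± 0.27, adjusted p = 0.0150) and 0 were higher. In normal cells Plau had a log2 change of 0.33 (adjusted p = 0.754 by limma). With the block Epha2 (0.68, adjusted p = 0.0159) and Mmp3 (0.93, adjusted p = 0.0247) were higher and Plau and Mmp14 (−0.53, adjusted p = 0.0183) lower in tumor cells, and Cd44 (−1.24, adjusted p = 0.0391), Ccl2 (−1.30, adjusted p = 0.0352) and Spp1 (−1.42, adjusted p = 0.0430) were lower in normal cells. Epha2, Mmp3 and Mmp14 had log2 changes of 0.40, 0.25 and 0.05 in normal cells. Those of Cd44, Ccl2 and Spp1 in tumor cells were −0.09, −0.30 and −0.30. None of the 16 output genes passed the test of the difference between the responses, by limma or with the block. With arginine Plau stood 4.48 ± 0.27 above normal cells on the log2 scale (adjusted p = 5.48e-08), and 9 of these 16 genes were higher and 1 lower in tumor cells in each medium. Of all tested probe sets 16.4% were higher and 18.1% lower in tumor cells with arginine, and 19.5% and 21.2% without it. Cd44, a hyaluronan receptor, differed by 5.96 ± 0.36 without arginine and 4.82 ± 0.36 with it, and Mmp3, the stromelysin gene, by 4.39 ± 0.38 and 3.71 ± 0.38 in the same order. Of the 38 other immediate early genes, 9 were higher and 9 lower in tumor cells without arginine, and 7 higher and 10 lower with it, to be set beside the same shares of all tested probe sets. Among the other DUSP phosphatases Dusp11, which acts on RNA, was higher in tumor cells in both media (0.82 ± 0.15 without arginine and 0.85 ± 0.15 with it, adjusted p = 0.000665 and 0.000663).

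The genes most like the members were sought by Pearson's r of log2 signal over the 12 arrays after each line's mean was removed, for Dusp1, Egr1, Fos and Dusp6. Such values share arrays, depth and experiments and are a description. Dusp1 at 1368146_at lay closest to Eif2s1 (r = 0.967), Polr1b (0.945) and Anxa7 (0.934), and Dusp6 at 1387024_at to Bcar3 (0.976). Dusp6 at 1377064_at lay closest to Nars1 (0.930) and at 1382778_at to Prkcd (0.900). Egr1 lay closest to Sde2 (0.875), Adcy8 (0.851) and Dusp5 (0.848), and the Fos probe sets had no r above 0.849.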

How the data were processed

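RNA of 12 cultures was hybridised to Affymetrix RAE230A arrays. The deposited values are linear intensities per probe set, which the authors computed with Microarray Suite 5.0 and scaled per array. Deposited run records were read only for chip lot, scan day and a handling note. Before taking log2, a floor of 1 was applied. Of 15923 probe sets, 57 controls were left out, and a probe set was tested when among the highest 54% of signals in at least 3 of 12 arrays. limma 3.58.1 in R 4.3.3 was fitted over all arrays with 1 mean per group and an intensity trend (8 residual degrees of freedom), with Benjamini-Hochberg adjustment over 9745 probe sets. Arrays give no counts, and the number of arrays limits the precision. Every member and every probe set of it is described, and of the other lists those passing in a cell type, at most 5. The members and lists were chosen with earlier results of these data known. The fit without the block was tested on simulated data with independent noise and no experiment effect. The fit with the block was not tested in that way.

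Experiments pair the cultures, from the study's pair-wise design, the consecutive numbers in the sample titles and the run records, since the labels do not state it outright. With group means removed, partners correlated at 0.429, 0.420 and 0.383 in normal cells and at 0.560, 0.0368 and 0.419 in tumor cells, where 1 pair of cultures from different experiments reached 0.275. The fit with this block has 4 residual degrees of freedom. Alternatives varied filter, offset, normalization, trend, blocks and arrays. Genes were named by the array annotation, and promoters came from RefSeq. Figures used matplotlib in Python.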

Additional observations from a re-analysis of the deposited data

How the results depend on the processing

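The number of member probe sets called in tumor cells for arginine, 1, became 7 with the experiment as a replicate block, 3 with 1 cell type alone, 4 by the 2-fold rule (at least 6 of 9 ratios; 1 of the 4 was Fos at 1375043_at, whose tumor signals are all low), 2 each with low signals raised to the 46th percentile, with an offset, with median centring and with scan day as a block, and 0 each with no filter, quantile normalization, no trend, an unmoderated two-way linear model and chip lot as a block. With the trypsin note and scan day as a block, chosen after seeing the data, it was 2. Leaving out each array in turn gave 0 to 3, with 3 and 2 without the normal arrays of experiment 1 (sufficient, deficient) and 0 without each deficient tumor array. For the mean of both cell types, 0 became 7 with the replicate block, 2 with scan day as a block, 1 with the trypsin note and scan day and 1 without both tumor arrays of experiment 2 (both added after seeing the data), and 0 to 1 leaving out an array. Between the lines with arginine, 9 became 4 by the 2-fold rule. Without arginine, 7 became 4 with no filter and 4 without both tumor arrays of experiment 2, and 3 by the 2-fold rule, and 4 to 7 leaving out an array. Counts for normal cells and for the difference of responses stayed at 0 in every alternative. The Dusp1 call held in 11 of 26 alternatives, with a log2 change of 1.15 to 1.33, and Dusp5 passed in 11 of 26, at 1.43 to 1.85. No log2 change that had passed reversed. The 2-fold rule does not apply to the mean or the difference. With 3 arrays per group precision is limited, and the low signals of Fos have no reliable order.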
